A study of Mus musculus with 19 samples.

Results

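Jph2 encodes junctophilin-2, and its main transcript, ENSMUST00000017961.10 (4211 bases), is 1 of the 96626 transcripts in each of 12 left ventricle RNA-seq tables. It was chosen because an N-terminal fragment of junctophilin-2 is the transgene of this study and because its level differed between genotypes in these same libraries. The genotype differences are therefore given as a description, with no test. Only the banding comparisons were tested. They did not choose it, but they share their libraries with the genotype differences, so their p-values are not free of that choice. The tables list transcript IDs without gene names, so the pairing of this ID with Jph2 was taken from the study question and general knowledge of the Ensembl annotation, and other Jph2 transcripts were not looked up.

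JP2NT-OE mice carry an HA-tagged JP2NT transgene under the a-MHC promoter, which is active in cardiac muscle cells, and littermates without the transgene were the controls. Transverse aortic banding (TAB), a constriction of the aortic arch that makes the left ventricle pump against a higher pressure, was done on 9-week-old males, whose ventricles were collected 3 weeks afterwards. The baseline mice were unoperated littermates harvested at 12 weeks, with no sham operation, so the load and the surgery cannot be told apart. The 4 groups (control baseline, control TAB, JP2NT-OE baseline and JP2NT-OE TAB) had 3 libraries each, which the labels number without stating that each came from a separate mouse, so p-values speak only of the variation among these libraries. The number of founder lines is not given in the sources used here.

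Junctophilin-2 is a structural protein of cardiac muscle. Its N-terminal part carries repeats that bind the plasma membrane, and its C-terminal end is anchored in the sarcoplasmic reticulum, so that the protein holds the transverse tubules close to the calcium release channels. In stressed hearts calpain cuts junctophilin-2 and releases an N-terminal fragment, JP2NT, that can enter the nucleus. The transgene supplies such a fragment directly. RNA from a transgene that holds Jph2 coding sequence can be assigned to the native transcript, and the tables do not tell the 2 sources apart.

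The native gene (ENSMUSG00000017817.11) spans chr2:163336242-163398049 on the minus strand of GRCm38.p6, the mm10 assembly. RefSeq lists more than 1 start for it. The 194 bases just before this gene span, at chr2:163398050-163398243 and read 5′ to 3′ on the minus strand, are shown because they lie next to the native gene, while the transgene is under the a-MHC promoter.
Sequence before the Jph2 gene span: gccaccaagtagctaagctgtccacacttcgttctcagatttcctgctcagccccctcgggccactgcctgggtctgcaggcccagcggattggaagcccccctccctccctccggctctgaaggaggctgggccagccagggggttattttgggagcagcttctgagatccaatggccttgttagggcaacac
The study also immunoprecipitated MEF2C and TBP, the TATA-binding protein, in samples not analysed here, and these letters were searched on both strands for TATAAA and for the MEF2 consensus. Neither was found, so no base is in capitals. The first 194 bases of 32851 RefSeq promoter windows held TATAAA in 8.9% and the MEF2 consensus in 2.34%. That length was set by the Jph2 gene span, not by the start site of each window.

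Total estimated counts ran from 37662212 to 53097801 per library. The 20 transcripts with the highest share of counts together held between 40.2% and 43.0% of a baseline library, between 33.9% and 34.8% of a banded control library and between 37.6% and 39.5% of a banded JP2NT-OE library. Values scaled to the library total, TPM among them, depend on this share, so each Jph2 result is given under several scalings. Cell type markers could not be read because IDs are not paired with gene names. In whole ventricle RNA, fewer muscle cells and less RNA per muscle cell cannot be told apart.

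Jph2 RNA was abundant in every group and higher in JP2NT-OE than in control hearts, before and after banding. On the TPM scale, which corrects for transcript length, control baseline libraries stood at 94.5, 101.7 and 107.6. Control TAB libraries stood at 108.8, 120.8 and 131.5. The lowest banded control library was just above the highest unoperated one, so these groups did not overlap in TPM. JP2NT-OE baseline libraries stood at 172.5, 202.7 and 194.4 TPM. JP2NT-OE TAB libraries stood at 165.0, 163.7 and 181.8 TPM. The 2 JP2NT-OE groups overlapped, and all 6 JP2NT-OE libraries were above all 6 control libraries.

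**Figure D1:**
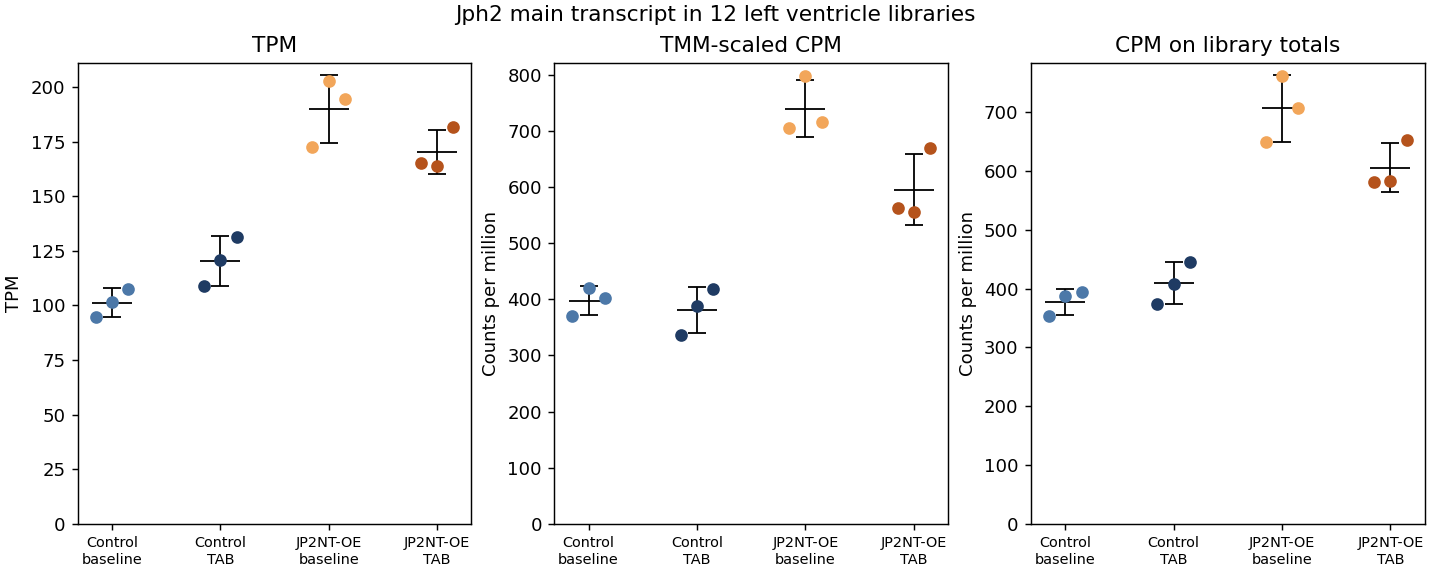
Level of the Jph2 main transcript in each of 12 libraries (points), with the mean and SD of each group (n = 3), as TPM, TMM-scaled CPM and CPM on library totals. On each scale the 6 JP2NT-OE libraries lie above the 6 control libraries, while the control groups change order between scales.

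The mean level was 101.3 ± 6.56 TPM in control baseline, 120.4 ± 11.3 TPM in control TAB, 170.2 ± 10.1 TPM in JP2NT-OE TAB and 189.9 ± 15.6 TPM in JP2NT-OE baseline (SD, n = 3), which is their order from low to high. The neighbours at the upper end, the 2 JP2NT-OE groups, had means that differed by -19.7 TPM (TAB minus baseline), more than the SD of either. Their ranges overlapped (exact two-sided permutation p = 0.2, or 0.32 after adjustment over 8 such tests). These 8 tests are the banding comparisons in control and in JP2NT-OE hearts, repeated on several scales of the same libraries. The neighbours at the lower end changed order with the scale: in TMM-scaled CPM (CPM, counts per 1000000 counts, after scaling factors that assume most transcripts do not change) control baseline was at 398 ± 25.7 and control TAB at 381 ± 40.8. In that unit, which is not corrected for length, JP2NT-OE baseline was at 740 ± 50.6 and JP2NT-OE TAB at 596 ± 63.9.

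Among all transcripts of a library, Jph2 ranked between 518 and 565 by TPM in control baseline hearts and between 516 and 610 in banded control hearts. In JP2NT-OE hearts its rank was 286 to 345 in unoperated and 351 to 390 in banded libraries. The ranks of control and JP2NT-OE hearts did not overlap, as was so in this direction for 4.73% of tested transcripts at baseline and 9.48% after TAB, from which nothing is read here. Within a library a rank does not change when all values are multiplied by 1 factor, and by rank the 2 control groups overlapped. The 2 JP2NT-OE groups did not overlap by rank, with the lower levels after TAB, as was so for 9.76% of tested transcripts.

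Counting error was far smaller than the spread between libraries. The lowest Jph2 count was 14328.4 estimated counts in control TAB replicate 1, with an exact 95% Poisson interval of 14095 to 14565, and the highest was 31904 in JP2NT-OE baseline replicate 2. Counting error alone was between 0.560% and 0.835% of the count per library (the intervals cover counting error only). The coefficient of variation between libraries of a group, in TMM-scaled CPM, was 6.45% in control baseline, 10.7% in control TAB, 6.83% in unoperated JP2NT-OE hearts and 10.7% in banded ones. The 128 other transcripts at least as abundant as Jph2 had median coefficients of 5.46%, 7.07%, 5.10% and 7.90% in the same groups. Jph2 thus varied somewhat more between libraries than the median of these transcripts.

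In unoperated hearts Jph2 was 1.87 times as high in JP2NT-OE as in control by TPM and 1.86 times by TMM-scaled CPM. The lowest JP2NT-OE library was 1.60 times the highest control library in TPM. The fitted log2 difference was 0.89 (SE 0.10). JP2NT-OE libraries lay wholly above control libraries for 5.1% of tested transcripts in TPM and for 5.02% in TMM-scaled CPM, from which nothing is read here because Jph2 was chosen on this contrast. None of the 128 other transcripts at least as abundant had a higher log2 difference: theirs ran from -1.81 to 0.85, with a median of -0.01. Among all 19234 transcripts whose mean log2 CPM was 1 or more, 187 had a higher one.

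In banded hearts the genotypes were closer. Jph2 was 1.41 times as high in JP2NT-OE as in control by TPM and 1.56 times by TMM-scaled CPM, and the lowest JP2NT-OE library was 1.25 times the highest control library in TPM. The fitted log2 difference was 0.65 (SE 0.10). JP2NT-OE libraries lay wholly above control libraries for 3.81% of tested transcripts in TPM and for 8.61% in TMM-scaled CPM. Of the 128 others at least as abundant, 2 had a higher log2 difference, and the median was 0.14. In both conditions together, 116 of 19234 transcripts (0.603%) had JP2NT-OE libraries wholly above control libraries in TMM-scaled CPM, Jph2 among them. Jph2 was chosen on both genotype differences, so nothing is read from these shares and places, here or at baseline.

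**Figure D2:**
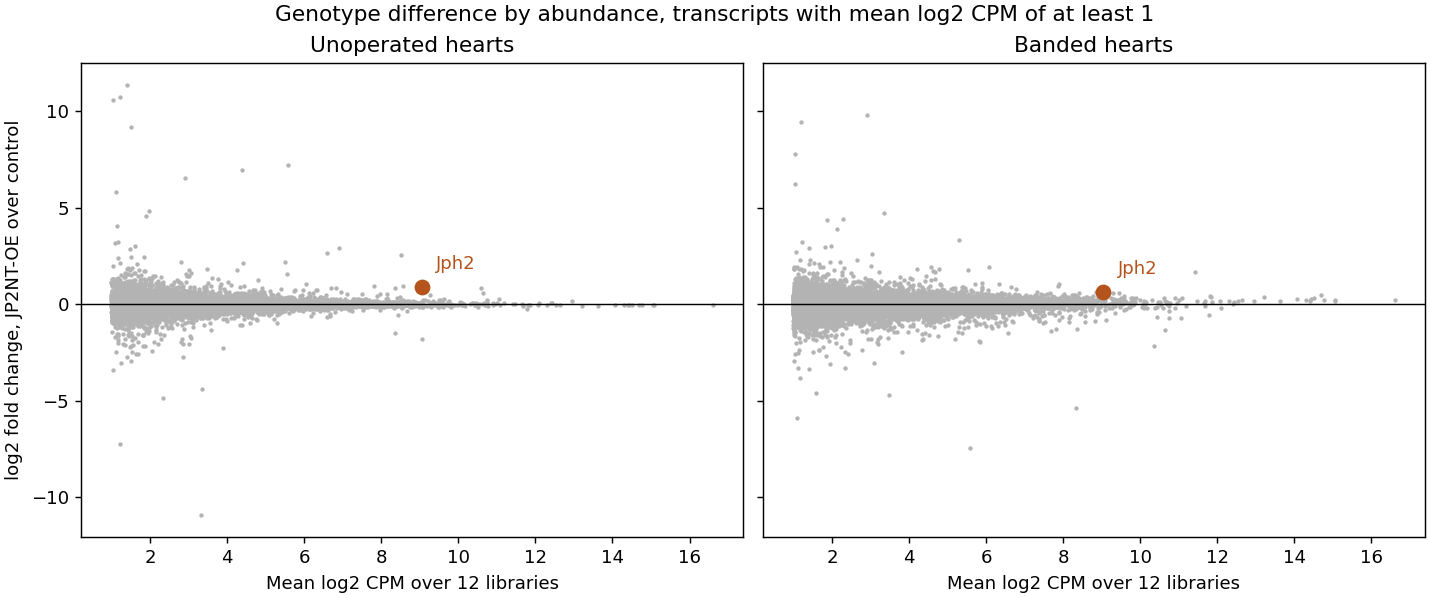
Fitted log2 fold change of JP2NT-OE over control against mean log2 CPM in unoperated (left) and banded (right) hearts, with 1 grey point for each transcript of mean log2 CPM of at least 1 and Jph2 in orange. Jph2 lies at 0.89 in unoperated and 0.65 in banded hearts, above all 128 and above 126 of the 128 other transcripts at least as abundant. It was chosen on these differences, so its place is a description only.

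The amount by which JP2NT-OE exceeded control hearts was 88.6 TPM at baseline and 49.8 TPM after TAB. In TMM-scaled CPM it was 342 and 215, and in CPM on library totals it was 329 and 196. On each of these scales the excess was smaller in banded hearts. The banded value depends on the banded means of both genotypes. The JP2NT-OE mean was lower than at baseline on all 3 scales. The control mean was higher in TPM and on library totals and lower in TMM-scaled CPM. With TMM factors neither banding difference passed the edgeR quasi-likelihood test (adjusted p = 0.796 in control and 0.211 in JP2NT-OE hearts). Whether the excess itself changed with banding was not tested, since both genotype differences chose the transcript. TPM divides by the effective length of the native transcript (4044.99 to 4051.48 bases over the libraries), so RNA of another length from the transgene would be scaled as if it had this one.

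The comparison of banded with unoperated control hearts asked whether the native transcript differed after banding, load and surgery together, where there is no transgene. Jph2 did not pass the test: its log2 fold change was -0.06 (SE 0.10, 95% interval -0.28 to 0.15, edgeR quasi-likelihood adjusted p = 0.796), against a background of 8.6% of 43256 transcripts called. Control TAB libraries stood at 337, 388 and 418 TMM-scaled CPM and control baseline libraries at 370, 421 and 403, and the groups overlapped. Under TMM factors, a fall to less than 0.82 of the baseline level, or a rise above 1.11 times, lies outside that interval. In TPM the banded control mean was 1.19 times the baseline mean, above that upper limit. The median log2 change of the 128 other transcripts at least as abundant was -0.27.

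The sign of the control value depended on the scaling. On library totals alone the log2 fold change was 0.12 (edgeR adjusted p = 0.438), and with limma on log2(TPM + 1) it was 0.24 (limma adjusted p = 0.0781). Those scalings also moved all transcripts: the median log2 change over those tested was 0.19 on library totals and 0.14 on log2(TPM + 1), compared with 0.01 under TMM factors. Relative to that median, Jph2 stood at -0.07 with TMM factors, -0.07 on library totals and 0.11 on log2(TPM + 1), and at -0.04 with a pseudocount of 0.1 in place of 1. In TPM, banded control libraries were all above unoperated ones for Jph2 and for 32.2% of tested transcripts (for Jph2, exact two-sided permutation p = 0.1, the smallest that 3 libraries against 3 allow, and 0.267 after adjustment over 8 such tests). With totals that leave out the 20 most abundant transcripts the log2 fold change was -0.06, as under TMM factors. Without control TAB replicate 1, the lowest banded control library, the TMM-scaled value was 0.02.

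The same comparison in JP2NT-OE hearts asked whether the level of this transcript, to which transgene RNA may add, differed after banding. The Jph2 level after TAB had a log2 fold change of -0.31 (SE 0.10, 95% interval -0.53 to -0.10), or 0.805 times the baseline level (95% interval 0.693 to 0.935). It did not pass the test over all transcripts (unadjusted p = 0.00896, edgeR quasi-likelihood adjusted p = 0.211), where 0.238% of 43256 were called. JP2NT-OE TAB libraries stood at 563, 555 and 670 TMM-scaled CPM, all below the JP2NT-OE baseline libraries at 706, 798 and 716. Such a lower range without overlap was found for 9.18% of tested transcripts, and the exact two-sided permutation p was 0.1, or 0.267 after adjustment over 8 tests. Of the 128 others at least as abundant, 20 had a lower log2 fold change, and the median over the 128 was -0.14.

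DESeq2 did call Jph2 as lower in banded JP2NT-OE hearts (log2 fold change -0.31, adjusted p = 0.0383), in a fit that called 6.42% of 26418 transcripts with an adjusted p. The direction was the same under all 16 alternatives, with log2 values between -0.40 and -0.16 and adjusted p between 0.0383 and 0.569. The JP2NT-OE libraries of these fits also entered the choice of Jph2. With limma on log2(TPM + 1) the log2 value was -0.16, and relative to the median transcript on that scale it was -0.23. Relative to the median it was -0.32 under TMM factors and on library totals, a match that is built in, as in controls.

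**Figure D3:**
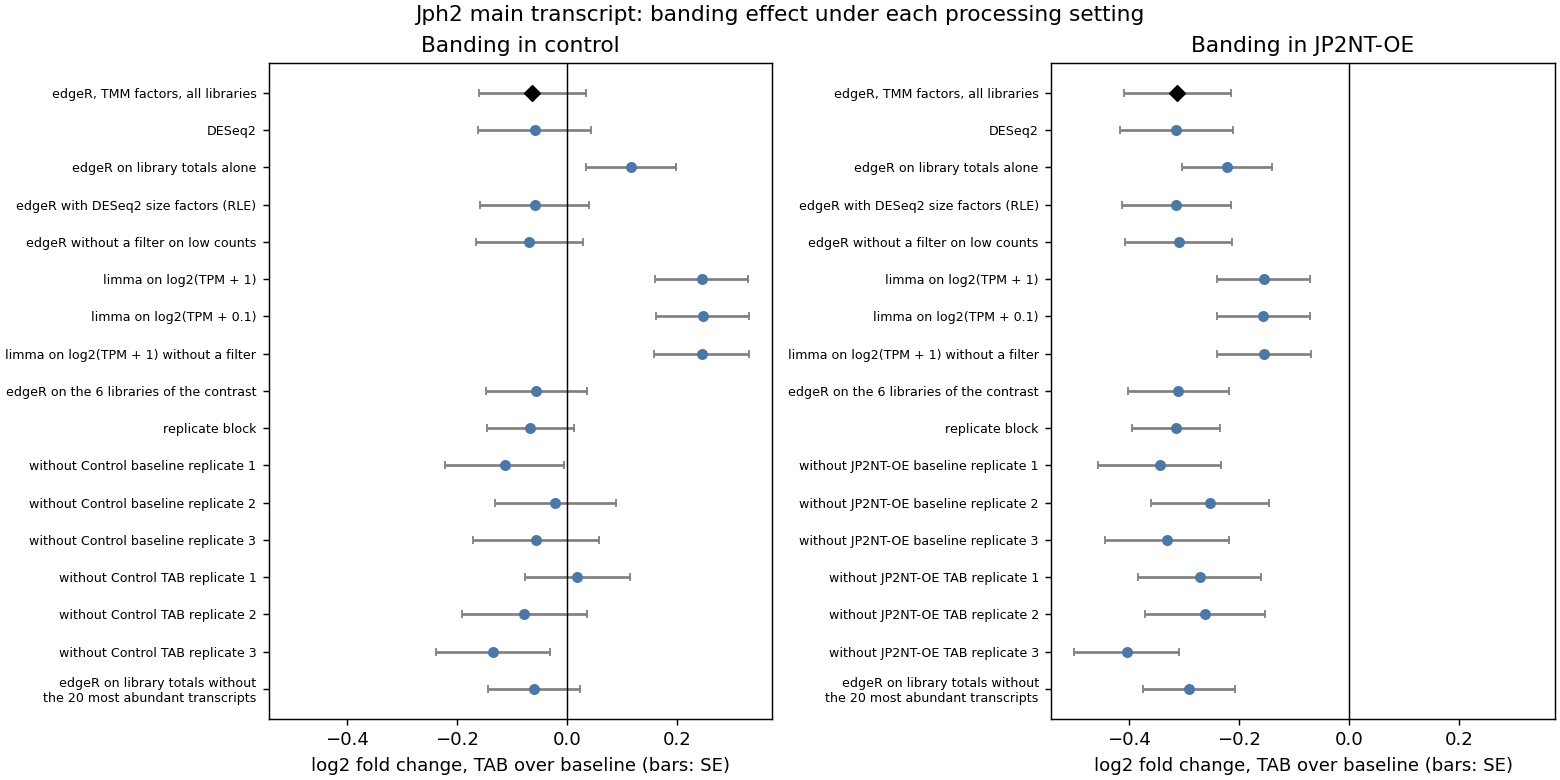
Log2 fold change of the Jph2 main transcript with banding (points, bars are SE) in control (left) and JP2NT-OE (right) hearts under each processing setting, with the reported fit as a black diamond. In control hearts the values lie from -0.13 to 0.25 on both sides of 0, and in JP2NT-OE hearts from -0.40 to -0.16.

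The transcripts whose pattern over the 12 libraries was most like that of Jph2 were sought among 19233 others by Pearson's correlation of log2 CPM, as a description, since all points share their libraries and the genotype groups dominate the pattern. The highest was ENSMUST00000027269.6 (2705 bases), with r = 0.958. It was far less abundant, at 0.129 ± 0.0119 TPM in control baseline, 0.327 ± 0.205 in control TAB, 3.76 ± 1.04 in JP2NT-OE baseline and 2.43 ± 0.159 TPM in JP2NT-OE TAB hearts (SD, n = 3). Next was ENSMUST00000199141.1 (1370 bases) with r = 0.928, at 1.495 ± 0.0946, 1.82 ± 0.187, 3.44 ± 0.0406 and 3.37 ± 0.580 TPM in the same order. The other 3 of the 5 most alike had r between 0.887 and 0.895. The gene names of these IDs are not given in the tables used here.

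**Figure D4:**
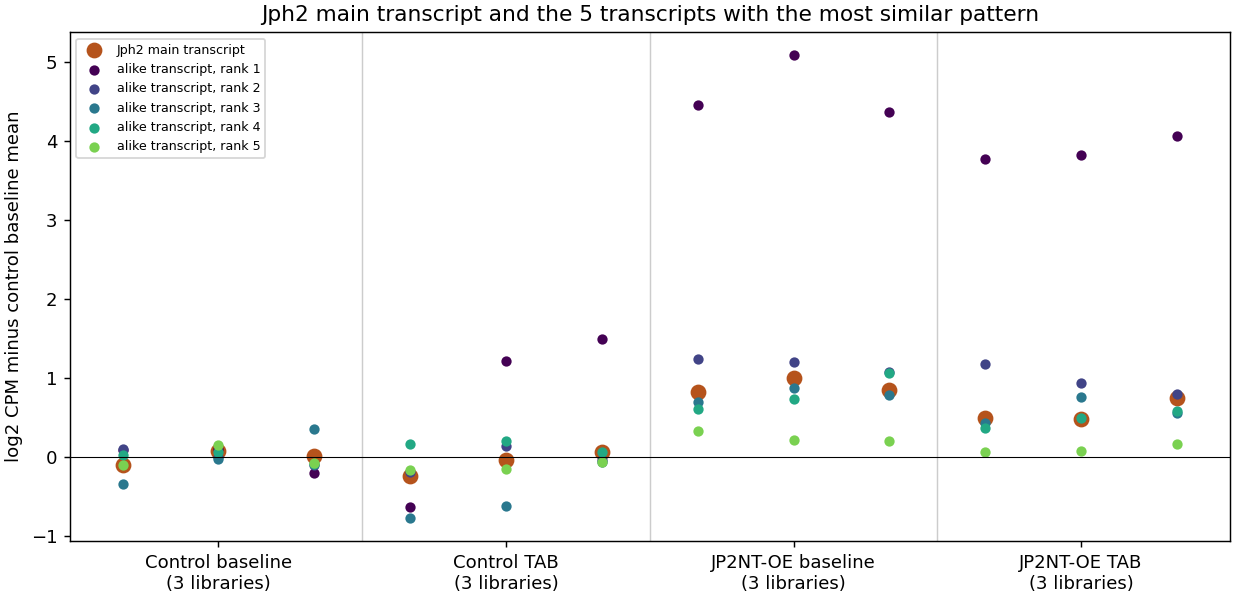
Log2 CPM minus the control baseline mean in each of 12 libraries, by group, for Jph2 (large orange points) and the 5 transcripts with the highest correlation to it (small points, ranked by r). All 6 are higher in JP2NT-OE baseline than in control baseline hearts, and the first of the 5 differs most between genotypes. For the last of the 5, JP2NT-OE TAB libraries overlap control baseline libraries.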

How the data were processed

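Left ventricle RNA was sequenced from stranded poly(A) libraries, per the labels' protocols. The submitters' processing notes name kallisto 0.42.5, cutadapt 1.8.1, FastQC 0.11.3 and the build mm10, without roles; the release of the transcript set is not given in the sources used here. Per the file headers, each transcript in the deposited tables has a length and an effective length in bases, an estimated count and a TPM. Estimated counts deposited by the authors divide reads that match several transcripts, and were rounded here. TPM values deposited by the authors sum to 1000000 per library and carry no depth.

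Transcripts passing filterByExpr by group (43256 of 96626) were fitted in edgeR 4.0.16 (R 4.3.3) with TMM factors and 1 mean per group over 12 libraries, and tested by the quasi-likelihood test with Benjamini-Hochberg adjustment over all of them, at 0.05. No unit was estimated per gene: 0 transcript IDs matched the table of gene names, so the gene lists and cell type markers drawn up for this work were not read. DESeq2 1.42.0 and limma 3.58.1 were alternatives. Correlations used log2 CPM with a prior count of 2. The edgeR fit and its test were tried on simulated data, for banding in control only. The member, lists and tests were chosen with earlier results of these data known. Named items were Jph2 and the most alike transcripts, of which 2 IDs are printed. The 7 chromatin immunoprecipitation (ChIP-seq) samples, an input among them, were not analysed here.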

Additional observations from a re-analysis of the deposited data

How the results depend on the processing

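The genotype differences of Jph2 moved by less than the spread between libraries under all 16 alternatives each, from 0.84 to 0.94 at baseline and from 0.50 to 0.72 after TAB on the log2 scale. The banding effect in controls changed sign on library totals (0.12), with limma on log2(TPM + 1) with and without a filter (0.24 for both) and with a pseudocount of 0.1 (0.25), and ran from -0.13 to 0.02 without 1 library (0.019 without control TAB replicate 1). The banding effect in JP2NT-OE passed with DESeq2 (-0.31) and ran from -0.40 to -0.25 without 1 library. Totals without the 20 most abundant transcripts, added after the data were seen, gave -0.06 and -0.29. The cause of these shifts was not tested.

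The numbers of transcripts called, used only as background, were less stable. Banding in controls called 3722 (1798 higher, 1924 lower), 5710 with DESeq2, 2401 on its 6 libraries alone, 7728 and 7024 with limma on log2(TPM + 1) with and without a filter (7088 and 6470 of them higher), 7355 with a pseudocount of 0.1 (6718 higher), and 4814 on library totals (3895 higher). Without 1 library it called between 2231 and 2970, the lowest without control baseline replicate 1, with 2266 without control baseline replicate 3 and 2442 without control TAB replicate 2. Banding in JP2NT-OE called 103 (46 higher, 57 lower), 1695 with DESeq2, 195 on library totals (156 higher), 33 without a filter, 427, 448 and 199 in the 3 limma fits on TPM (374, 395 and 170 higher) and 4 on its 6 libraries alone. Leaving out its baseline replicates 1, 2 and 3 gave 26, 3 and 12 calls, and leaving out its TAB replicates 1, 2 and 3 gave 8, 4 and 407.

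With the replicate block, Jph2 changed by -0.07 in controls (edgeR adjusted p = 0.722) and by -0.32 in JP2NT-OE (edgeR adjusted p = 0.191), and the block called 3040 and 0 transcripts (edgeR, 4817 with an unadjusted p under 0.05 for the latter). No sign was seen that the numbers pair the libraries. Of 18 correlations between same-numbered libraries 0 exceeded 0.1 (-0.09 to 0.09), and 5 of 12 libraries correlated best with their own number. These values cannot exclude a pairing.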
